A study of Mus musculus with 6 samples.

Results

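The mitochondrial genome of the mouse carries 37 annotated genes, and all of them were rows of the deposited count table. They were taken as the rows whose GENCODE M21 symbol starts with mt-, and made up 37 of 41388 gene rows. Of these, 13 encode proteins of the respiratory chain, 2 encode ribosomal RNAs and 22 encode transfer RNAs. The study profiled poly(A) RNA of mouse induced pluripotent stem cells (iPSCs) in 6 strand-specific libraries, 3 from miR-34a-/- lines and 3 from wild-type lines. Both genotypes were on the C57BL/6 background. All lines came from embryonic fibroblasts of littermates that were reprogrammed with retroviral Oct4, Sox2 and Klf4, and each was expanded from a single picked colony on irradiated fibroblast feeders. Thus the wild-type lines carry the reprogramming viruses too, each line is clonal, and feeder RNA can be present in every library. The labels do not say which lines share an embryo, so p-values measure the spread between these lines.

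Mitochondrial DNA is transcribed from both strands into long RNAs that span many genes. The tRNAs that lie between the other genes are cut out, and this frees the mRNAs and rRNAs. Most of the mRNAs then receive poly(A) tails inside the organelle, the rRNAs only short adenine tails and the tRNAs none, so poly(A) selection favours the tailed mRNAs. The encoded proteins are core subunits of complexes I, III, IV and V of oxidative phosphorylation, and every other protein that copies, cuts or translates these RNAs is encoded in the nucleus.

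Gene counts per library ranged from 7935323 to 27933272, and levels are CPM, a gene's count divided by all gene counts of its library and scaled to 1000000. Each ± gives the SD of 3 lines. Log2 fold changes have the knockout on top and come from edgeR's quasi-likelihood test of 14717 genes, and a gene was called where its p, adjusted after Benjamini and Hochberg, was under 0.05. The deleted Mir34a was nearly unsampled, with counts of 1, 0 and 0 in the knockout lines, against 2, 0 and 0 in the wild-type lines, so it gave no check of the labels. All 8 pluripotency markers were expressed and called higher in the knockout, at a sum of 7407 to 7841 CPM in knockout lines, against 5602 to 5774 CPM in the wild-type lines. Among these markers, Pou5f1 (Oct4), Sox2 and Klf4 are also the viral factors. Counts per gene do not tell viral RNA from that of the cells' own genes. The 15 fibroblast markers summed to 2327 to 2587 CPM in knockout lines, against 2703 to 2985 CPM in the wild-type lines. Fn1 made up most of this sum, at 1921 to 2095 CPM in knockout lines, against 2098 to 2177 CPM in wild-type lines. Of 13 tested fibroblast markers, 10 were called lower and 1, S100a4, higher in the knockout. Over all 14717 genes tested, 26.5% were called higher and 24.0% lower, the shares to set beside both marker lists. S100a4 was at 67.1 to 74.5 CPM in knockout lines, against 21.1 to 27.0 CPM in wild-type lines. Lum and Fap were at 0 in every knockout library. They were barely sampled in wild-type lines too, at 0 to 0.127 CPM and 0.0636 to 0.126 CPM. The part of fibroblast RNA in the mitochondrial values was not tested.

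Nuclear pseudogenes, copies of mitochondrial DNA inserted in the chromosomes, repeat the sequence of some of the 37 genes. Each gene was cut into all its 50-base windows, and each window was looked up on both strands of every annotated transcript. Of the 13 protein-coding genes, 5 had under 3% of windows to themselves, namely mt-Co2 (0%), mt-Co3 (0.1%), mt-Atp6 (0.5%), mt-Nd4l (1.2%) and mt-Nd3 (2.0%). The windows of each recurred in a pseudogene of chromosome 1. mt-Nd4 was unique in 37.8% and mt-Co1 in 48.9% of windows. The other 8 genes that are not tRNAs were unique in 91.8% or more. Windows of 100 bases gave 69.2% for mt-Co1 and 39.2% for mt-Nd4 and still left those 5 genes at 2.4% or less.

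The pseudogenes lie side by side on the minus strand of chr1:24611535-24616197 (mm10) and follow the order of chrM:6390-11042. They are Gm29216 (mt-Co1), Gm28661 (mt-Co2), Gm10925 (mt-Atp6), Gm28437 (mt-Co3), Gm28438 (mt-Nd3), Gm10222 (mt-Nd4l) and Gm28439 (mt-Nd4). Their aligned parts were 99.71% to 100% identical to the mitochondrial genes. Of the 6 distances between neighbours, 5 equalled those on the mitochondrial genome to the base, and the sixth differed by 1 base (74 against 73). Within that span the mitochondrial genome also holds mt-Atp8 and 5 tRNA genes. The intervals between the pseudogenes are not annotated transcripts and no genome sequence was searched, so the uniqueness of mt-Atp8 and of these tRNAs is an upper limit. The sources used here do not say how reads that match several places were handled.

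The first 60 bases of mt-Co3 (chrM:8607-8666, plus strand) and of its chromosome 1 copy (chr1:24613912-24613971, minus strand) stand for the genes with few or no unique windows, and the windows of mt-Cytb (chrM:14970-15029) and mt-Co1 (chrM:5787-5846) with the most mismatches to another pseudogene stand for those that can be told apart. Capitals mark mismatches between the members of each pair, of which there are 0, 8 and 4.
mt-Co3: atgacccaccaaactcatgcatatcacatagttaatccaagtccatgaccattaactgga
Gm28437: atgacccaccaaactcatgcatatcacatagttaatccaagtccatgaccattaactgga
mt-Cytb: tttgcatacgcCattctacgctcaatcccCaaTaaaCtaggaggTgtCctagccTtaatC
Gm11410: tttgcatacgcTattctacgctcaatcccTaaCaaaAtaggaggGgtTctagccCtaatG
mt-Co1: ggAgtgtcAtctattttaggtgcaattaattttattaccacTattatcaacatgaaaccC
Gm13340: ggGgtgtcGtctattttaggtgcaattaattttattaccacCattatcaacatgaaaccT
Gm11410 lies at chr4:80003989-80005131 and is 92.91% identical to mt-Cytb, and Gm13340 lies at chr2:22588103-22589647 and is 97.61% identical to mt-Co1. Gm11410 had 0 counts in all 6 libraries, and Gm13340 had 14 in all.

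Levels per kb of the whole gene followed this division. The 5 genes with under 3% unique windows stood at 0.0247 to 3.94 CPM per kb, as the mean of both genotypes, and the 8 with over 90% at 7.34 to 142 CPM per kb. mt-Co2 had 2 counts over the knockout lines, against 0 over the wild-type lines, and mt-Co3 had 0, against 6. Both encode core subunits of complex IV, as does mt-Co1, which had 46012 counts over the knockout lines, against 65451 over the wild-type lines. The pseudogenes had few counts too, the 7 on chromosome 1 together 31 over all 6 libraries, with 9 for the highest, Gm28661. The part of shared sequence in these low levels was not tested.

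**Figure D1:**
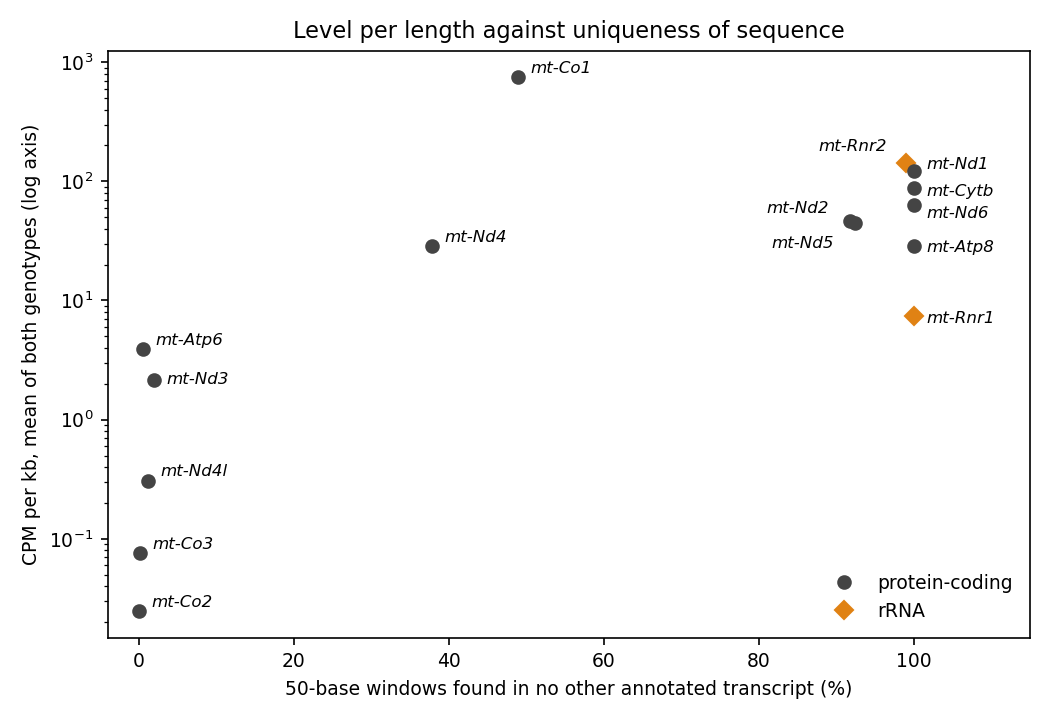
Mean CPM per kb over both genotypes (log axis) against the percentage of 50-base windows found in no other annotated transcript, for the 13 protein-coding (circles) and 2 rRNA genes (diamonds). The 5 genes at the left edge have under 3% unique windows and lie at or below 3.94 CPM per kb, while mt-Co1, at 48.9%, is the highest of the 15 at 745 CPM per kb.

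Among the remaining genes the order per length was led by mt-Co1, the catalytic subunit of complex IV, at 577 CPM per kb in knockout lines, against 912 CPM per kb in wild-type lines. It held 70.8% to 75.8% of all protein-coding mitochondrial counts in a library. mt-Rnr2, the 16S rRNA of the large ribosomal subunit, was next at 101 CPM per kb in knockout lines, against 183 CPM per kb in wild-type lines. Next came mt-Nd1 (84.4 and 157), mt-Cytb (69.5 and 108) and mt-Nd6 (47.8 and 78.9 CPM per kb, knockout before wild-type in each). mt-Nd2 and mt-Nd5 were close to each other, at 46.6 and 44.5 CPM per kb as the mean of both genotypes. mt-Rnr1, the 12S rRNA of the small subunit, was far lower at 7.17 CPM per kb in knockout lines, against 7.50 CPM per kb in wild-type lines, although all its windows were unique.

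Levels of mitochondrially encoded RNAs were mostly lower in the knockout lines, with a wide spread among the knockout lines, and 1 gene passed the test. Of the 37 genes, 13 passed the count filter (10 protein-coding, 2 rRNA and 1 tRNA), and 1 of them, mt-Nd4, was called lower and 0 higher, while 24.0% of all genes tested were called lower. All 13 had a log2 fold change below 0, with a median of -0.66 against 0.01 over all genes tested. Values below 0 made up 49.3% of all genes tested. The 13 are cut from shared precursors and were measured in the same 6 libraries, so they are not independent observations. In either direction 50.5% of all genes tested were called, and 26.5% were called higher. The groups did not overlap in 6 of the 13, all lower in the knockout, where 27.3% of all genes tested lay apart in that direction and 55.9% in either. At an unadjusted p under 0.05, 3 were lower, against 27.0% of all genes tested, and 0 were higher.

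How many members were called depended on the fit. With robust = FALSE, under which the spread of unusual genes is drawn to that of the rest, 7 were called lower (23.7% of all genes). With library GC trends removed, 3 were called (23.7% of all genes), 11 of the 13 were below 0, and mt-Rnr1 and mt-Nd3 had values above 0 (0.22 and 0.14). DESeq2 called 3 (19.9% of all genes), limma voom 3 (24.6%) and edgeR without a filter 4 of 28 (15.7%). DESeq2 size factors gave 2 and library totals 1 (24.4% of all genes each), and a minimum of 1 CPM gave 1 of 12 (25.9%). With the replicate number as a block 3 were called (25.7% of all genes) and, with GC trends removed as well, 5 (26.4%). Leaving out knockout replicate 1, 2 or 3 gave 4, 1 or 6 calls (19.9%, 19.4% and 25.2% of all genes). Leaving out wild-type replicate 1, 2 or 3 gave 0, 1 or 3 calls (20.8%, 20.3% and 21.7% of all genes), the 3 being mt-Atp6, mt-Nd4 and the tRNA mt-Tl2. In bulk RNA, less of each RNA per mitochondrial genome and fewer mitochondrial genomes per cell cannot be told apart.

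**Figure D2:**
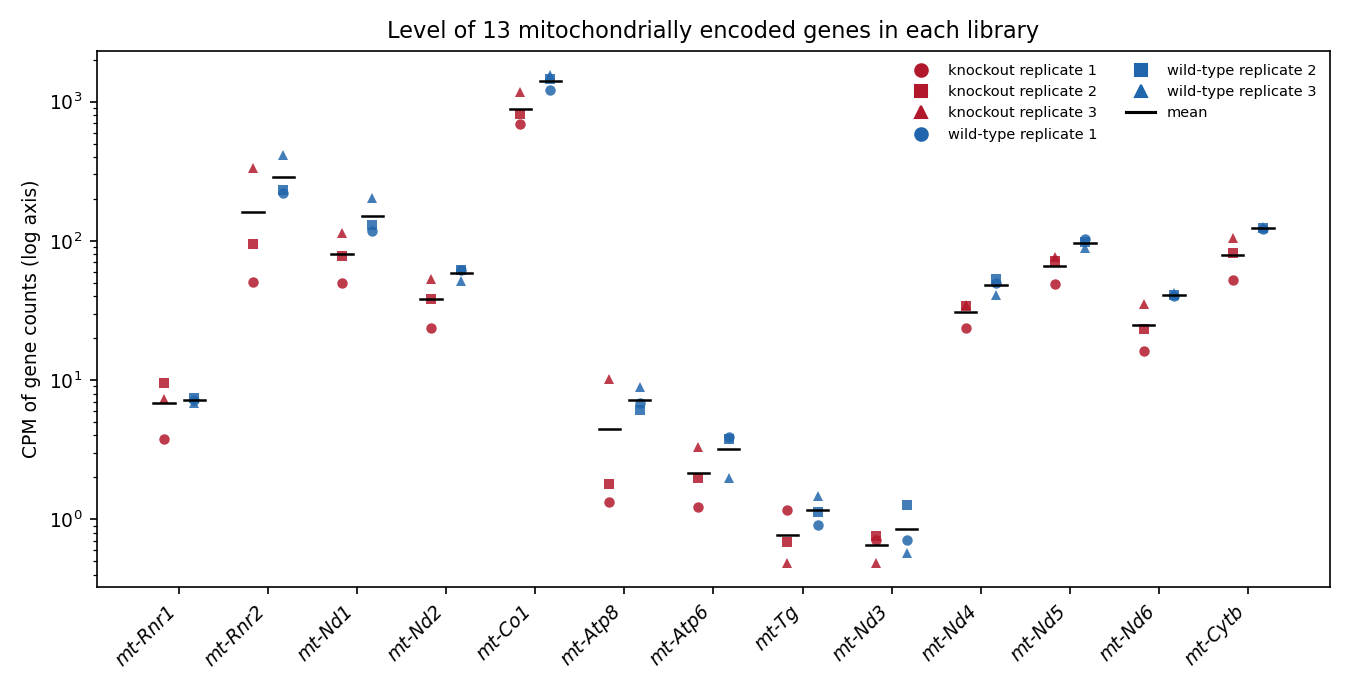
CPM of gene counts (log axis) for the 13 tested genes in genome order, with the 3 knockout libraries left of the 3 wild-type libraries and a bar at each mean. In mt-Nd1, mt-Co1, mt-Nd4, mt-Nd5, mt-Nd6 and mt-Cytb every knockout library lies below every wild-type library.

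Complex I, which takes electrons from NADH, has 7 subunits encoded here. mt-Nd4, a subunit of its proton-pumping arm (chrM:10167-11544), stood at 23.8, 33.8 and 34.4 CPM in knockout replicates 1 to 3, against 49.5, 53.6 and 40.6 CPM in wild-type replicates 1 to 3. The groups did not overlap, and the fold change was -0.64 on the log2 scale (SE 0.166, edgeR adjusted p = 0.019). Without wild-type replicate 1 the call was lost (log2 fold change -0.61, edgeR adjusted p = 0.077). The first 876 of its 1378 bases are identical to Gm28439, and Gm28439 itself had 3 counts. The unique part is the 3′ end, shown by the last 60 bases (chrM:11485-11544), where the final capital is all that the gene encodes of the stop codon, the rest being supplied by the poly(A) tail.
mt-Nd4 3′ end: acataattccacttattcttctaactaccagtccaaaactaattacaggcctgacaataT
mt-Co3, mt-Nd4 and mt-Cytb are the 3 of the 13 protein-coding genes whose annotated sequence ends in such a single T.

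mt-Nd5, another pumping subunit (chrM:11742-13565), was at 49.1, 71.7 and 76.1 CPM in the knockout, against 103, 98.7 and 89.0 CPM in the wild-type lines. The groups lay apart, yet the gene stayed just short of the threshold, with a log2 fold change of -0.57 (SE 0.181, edgeR adjusted p = 0.051). Without knockout replicate 1 it was called (log2 fold change -0.39, edgeR adjusted p = 4.3e-04). With any other library left out it was not called (edgeR adjusted p = 0.051 to 0.15). mt-Nd1, which lies where the quinone binds (chrM:2751-3707), was at 50.1, 78.0 and 114 CPM in the knockout, against 117, 130 and 203 CPM in the wild-type lines. The highest knockout library almost reached the lowest wild-type library, and the log2 fold change of -0.93 had an SE of 0.420 (edgeR adjusted p = 0.14). mt-Nd2 was at 23.8, 38.3 and 52.9 CPM in the knockout, against 61.8, 62.0 and 51.2 CPM in the wild-type lines. Here knockout replicate 3 lay above wild-type replicate 3 (log2 fold change -0.66 with SE 0.315, edgeR adjusted p = 0.16). mt-Nd3 and mt-Nd4l were near the floor at 0.649 ± 0.143 and 0.127 ± 0.106 CPM in the knockout, against 0.845 ± 0.365 and 0.0562 ± 0.0649 CPM in the wild-type lines. Of these, mt-Nd3 was tested (log2 fold change -0.13, edgeR adjusted p = 0.78), and its sign turned with library GC trends removed and without wild-type replicate 2 (0.14 and 0.09).

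mt-Nd6 is the only protein-coding gene on the other strand (chrM:13552-14070, minus strand), together with 8 of the tRNA genes. It was at 16.2, 23.1 and 35.1 CPM in the knockout, against 39.9, 41.0 and 42.0 CPM in the wild-type lines. The wild-type libraries were nearly level and every knockout library was below them, with a log2 fold change of -0.81 (SE 0.286, edgeR adjusted p = 0.079). It was called without knockout replicate 1 (log2 fold change -0.56, edgeR adjusted p = 0.024) and without knockout replicate 3 (-1.04 and 2.0e-05). With any other library left out it was not called (edgeR adjusted p = 0.17 to 0.21). Its share relative to the other protein-coding genes was 1.82%, 2.05% and 2.23% in the knockout, against 2.37%, 2.12% and 2.03% in the wild-type lines. These ranges overlapped (difference of mean log2 ratios -0.09, exact permutation p = 0.50, two-sided), so the difference was within the spread between lines. Whether poly(A) selection captured mt-Nd6 as well as the other mRNAs was not tested. mt-Nd6 shares 14 bases with mt-Nd5 on the opposite strand, and the sources used here do not say whether counting used strand.

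mt-Cytb, the cytochrome b of complex III (chrM:14145-15288), was the most even gene in the wild-type lines, at 121, 123 and 125 CPM. In the knockout it was at 52.4, 81.4 and 105 CPM. All 3 knockout lines were below this narrow band, but by unequal amounts (log2 fold change -0.65 with SE 0.277, edgeR adjusted p = 0.12). It was called without knockout replicate 1 (log2 fold change -0.41, edgeR adjusted p = 0.0034) and without knockout replicate 3 (-0.87 and 0.048). With any other library left out it was not called (edgeR adjusted p = 0.23 to 0.25). mt-Co1 (chrM:5328-6872) was at 687, 816 and 1174 CPM in the knockout, against 1221, 1452 and 1553 CPM in the wild-type lines, again without overlap (log2 fold change -0.66 with SE 0.253, edgeR adjusted p = 0.10). Without knockout replicate 3 it was called (log2 fold change -0.91, edgeR adjusted p = 0.0010). With any other library left out it was not called (edgeR adjusted p = 0.13 to 0.25). The summed complex I genes were 23.9%, 30.1% and 26.7% of the complex IV genes in the knockout, against 30.4%, 26.6% and 27.5% in the wild-type lines (difference of mean log2 ratios -0.07, exact permutation p = 0.50). The complex IV counts were almost all mt-Co1.

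Both ATP synthase subunits encoded here had low counts. mt-Atp8 (chrM:7766-7969) was at 1.32, 1.79 and 10.2 CPM in the knockout, against 6.83, 6.05 and 8.84 CPM in the wild-type lines. Knockout replicate 3 was the highest of the 6 and the other knockout lines were the lowest, and the log2 fold change of -1.20 had an SE of 0.845 (edgeR adjusted p = 0.31). Without knockout replicate 3 the log2 fold change was -2.21 (edgeR adjusted p = 4.2e-09). Without knockout replicate 1 or 2 it was -0.71 in each case (edgeR adjusted p = 0.59 and 0.62). Leaving out a wild-type library gave -1.27 to -1.04 (edgeR adjusted p = 0.40 to 0.50). mt-Atp6, which overlaps mt-Atp8 by 43 bases on the same strand, was at 1.22, 1.97 and 3.28 CPM in the knockout, against 3.89, 3.78 and 1.97 CPM in wild-type lines (log2 fold change -0.72 and edgeR adjusted p = 0.094). With a library left out its log2 fold change ranged from -0.44 without knockout replicate 1 to -0.99 without wild-type replicate 3, and it was called without knockout replicate 3 (edgeR adjusted p = 0.0075) or wild-type replicate 3 (0.0090).

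**Figure D3:**
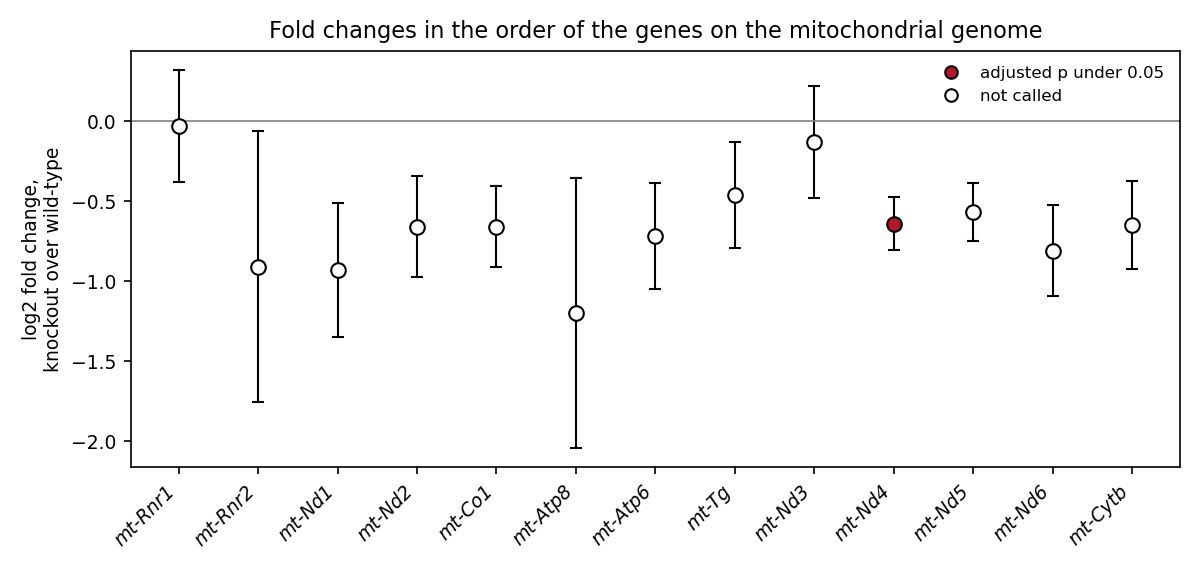
Log2 fold change of knockout over wild-type for the 13 tested genes in the order of the mitochondrial genome, with bars of 1 SE and the called gene filled. All points lie below 0, mt-Nd4 is the only one called, and mt-Rnr2 and mt-Atp8 have the widest bars (SE 0.848 and 0.845).

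The rRNAs showed no common pattern. mt-Rnr2 (chrM:1094-2675) was at 50.8, 94.2 and 336 CPM in the knockout, against 222, 231 and 415 CPM in the wild-type lines. Knockout replicate 3 held 4.63 times the mean of the other knockout lines, and wild-type replicate 3 was the highest of all, and the genotypes overlapped (log2 fold change -0.91 with SE 0.848, edgeR adjusted p = 0.44). Without knockout replicate 3 the log2 fold change was -1.99 (edgeR adjusted p = 0.056). With any other library left out it was -1.09 to -0.47 (edgeR adjusted p = 0.48 to 0.70). mt-Rnr1 (chrM:70-1024) was at 3.75, 9.52 and 7.29 CPM in the knockout, against 7.24, 7.44 and 6.80 CPM in wild-type lines (log2 fold change -0.03 and edgeR adjusted p = 0.95), and without knockout replicate 1 its log2 fold change was 0.30. Its lowest and highest values were both in knockout libraries. The ratio of mt-Rnr2 to mt-Rnr1 counts was 13.6, 9.89 and 46.1 in the knockout, against 30.7, 31.1 and 61.0 in the wild-type lines (exact permutation p = 0.30). Both rRNAs come from the same precursor, with only a tRNA gene between them.

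By class, the protein-coding genes summed to 905, 1147 and 1606 CPM in the knockout, against 1725, 1971 and 2116 CPM in the wild-type lines. The means were 1219 ± 356 CPM in knockout lines, against 1938 ± 198 CPM in wild-type lines (SD, n = 3 each), and the groups did not overlap. The exact permutation test gave p = 0.10 (two-sided), the smallest that 3 against 3 allows. The rRNA genes summed to 54.5, 104 and 343 CPM in the knockout, against 230, 239 and 422 CPM in the wild-type lines, with overlap (exact permutation p = 0.30). The tRNA genes summed to 1.87, 1.72 and 1.46 CPM in the knockout, against 2.15, 2.90 and 2.48 CPM in the wild-type lines. These did not overlap either (exact permutation p = 0.10), but rest on 12 to 52 counts per library. All 37 genes together took 0.0962%, 0.125% and 0.195% of gene counts in the knockout, against 0.196%, 0.221% and 0.254% in the wild-type lines. Exact 95% binomial intervals, which cover counting error only, were 0.192% to 0.198% for knockout replicate 3 and 0.194% to 0.197% for wild-type replicate 1, so these intervals overlapped. Ratios between classes overlapped between the genotypes. The rRNA to protein-coding ratio was 6.02%, 9.05% and 21.4% in knockout lines, against 13.3%, 12.1% and 19.9% in the wild-type lines (exact permutation p = 0.50), and for tRNA to protein-coding the exact permutation p was 0.70.

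**Figure D4:**
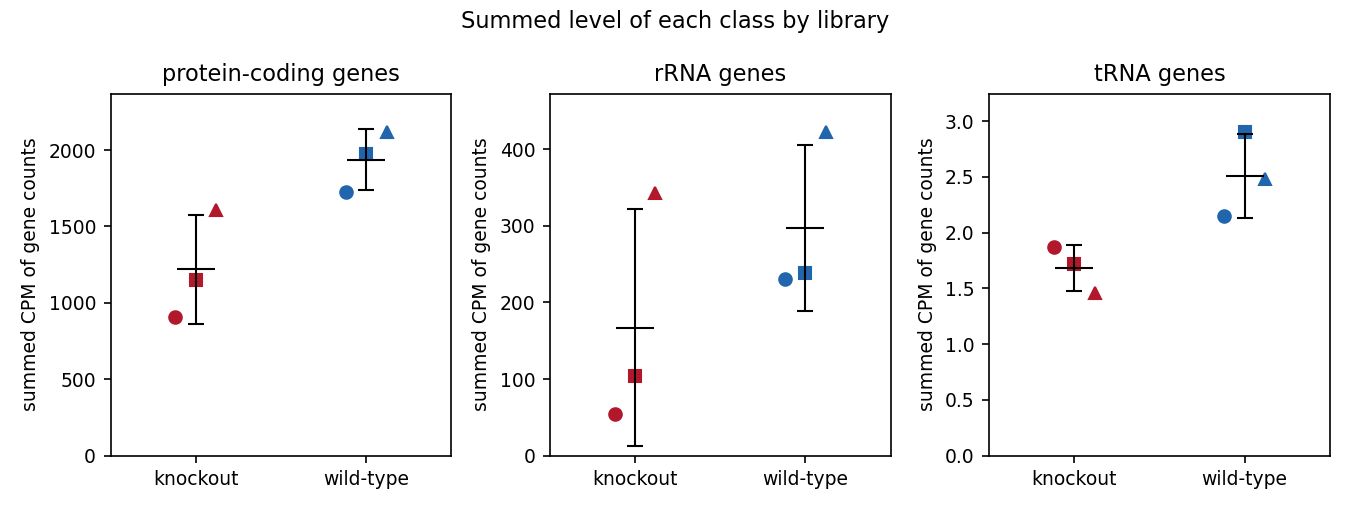
Summed CPM of the protein-coding, rRNA and tRNA genes in each library (circle, square and triangle for replicates 1 to 3), with the mean and SD as bars and axes from 0. The protein-coding and tRNA sums do not overlap between the genotypes, and the rRNA sums do, through knockout replicate 3 at 343 CPM.

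The 22 tRNA genes were barely sampled. Of them, 9 had 0 counts in every library, and 1, mt-Tg, passed the count filter. A count of 0 allows up to 3 counts, or 0.107 to 0.378 CPM per library. mt-Tg, which carries glycine, was at 1.16, 0.680 and 0.486 CPM in the knockout, against 0.911, 1.13 and 1.46 CPM in wild-type lines (log2 fold change -0.46 and edgeR adjusted p = 0.25). Next in level were the leucine tRNAs mt-Tl2, with 14 counts over the knockout lines, against 24 over the wild-type lines, and mt-Tl1, with 11, against 13. The tyrosine tRNA mt-Ty had 11 counts over the knockout lines, against 2 over the wild-type lines, and the serine tRNA mt-Ts2 had 6, against 5. mt-Tl2 passed the count filter when wild-type replicate 3 was left out, and was then called lower, and it was not among the genes tested over all 6 libraries. The sequences of the 3 highest are shown because they hold most of the tRNA counts, with the anticodon in capitals.
mt-Tg (chrM:9391-9458): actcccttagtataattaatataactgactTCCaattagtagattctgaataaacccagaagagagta
mt-Tl2 (chrM:11671-11741): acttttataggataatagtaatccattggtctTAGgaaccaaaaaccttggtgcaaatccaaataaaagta
mt-Tl1 (chrM:2676-2750): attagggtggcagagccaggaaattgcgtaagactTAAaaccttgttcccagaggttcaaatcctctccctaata
Mature tRNAs and unprocessed precursors cannot be told apart in counts per gene.

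The members varied more than most genes, and most of all among the knockout lines. Knockout replicate 1 was the lowest of the 6 libraries for 11 of the 13 tested genes, and knockout replicate 3 for the other 2, mt-Tg and mt-Nd3. Knockout replicate 3 was the highest of the knockout lines for 10 of the 13. The 13 share precursors and libraries, so counts over them do not count independent observations. The coefficient of variation across lines was larger in the knockout than in the wild-type for 12 of the 13, as it was for 50.6% of all genes tested. Its median over the members was 38.6% for the knockout and 13.9% for the wild-type. Over all genes tested the medians were 7.71% for the knockout and 7.53% for the wild-type. The biological coefficient of variation fitted by edgeR was 9.82% to 74.0% for the members, with a median of 24.8% against 6.49% over all genes tested. Among the knockout lines the shallowest library, replicate 3 with 8235299 gene counts, had the highest summed mitochondrial level at 1950 CPM. Among the wild-type lines the deepest library, replicate 1 with 24156852 gene counts, had the lowest at 1957 CPM. The order by depth did not hold throughout. The deepest knockout library, replicate 2 with 27933272 gene counts, lay between the others of its genotype at 1252 CPM. So did the shallowest wild-type library, replicate 2 with 7935323 gene counts, at 2213 CPM. The part of depth in these levels was not tested.

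**Figure D5:**
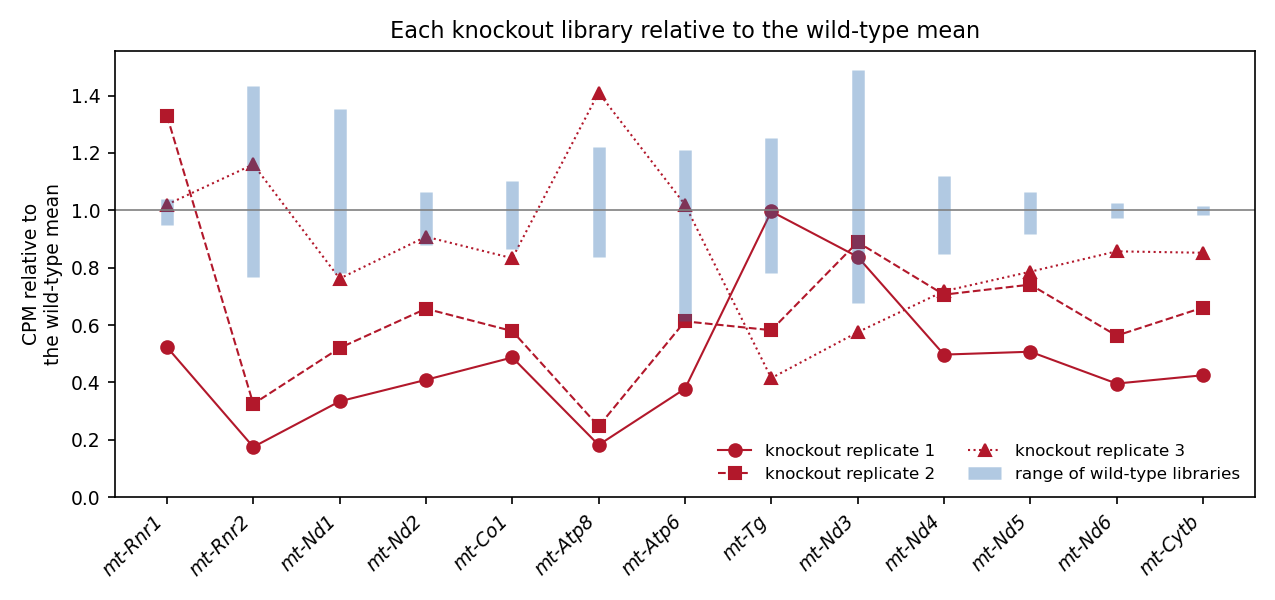
CPM of each knockout library divided by the wild-type mean (symbols and lines; the lines only join points of 1 library), with the range of the wild-type libraries as blue bars, for the 13 tested genes in genome order. Knockout replicate 1 runs lowest for most genes, and knockout replicate 3 reaches 1.16 for mt-Rnr2 and 1.41 for mt-Atp8, where replicates 1 and 2 stay between 0.175 and 0.325.

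The mitochondrial RNAs have a base composition unlike that of nuclear transcripts. GC content was 31.9% to 41.1% in the protein-coding genes, 35.4% to 35.8% in the rRNAs and 17.1% to 44.9% in the tRNAs, against a median of 51.2% in the nuclear genes tested. With library GC trends of the nuclear genes removed, the median log2 fold change of the 13 was -0.45 in place of -0.66. Then mt-Nd4, mt-Nd5 and mt-Nd6 were called lower, with log2 fold changes of -0.39, -0.34 and -0.57 (edgeR adjusted p = 0.0085, 0.027 and 0.046).

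Nuclear genes that serve the mitochondrial genome were read in the same fit, and many of them were called lower in the knockout. Of 22 genes for the processing, polyadenylation and decay of mitochondrial RNA, 15 fell and 1, Fastk, rose (log2 fold change 0.25), with a median log2 fold change of -0.29, where 24.0% of all genes tested were called lower and the median was 0.01. Trnt1, which adds the CCA end to tRNAs, was at 27.3, 25.5 and 34.2 CPM in the knockout, against 48.8, 46.4 and 47.9 CPM in wild-type lines (a log2 fold change of -0.76 with an SE of 0.0872, edgeR adjusted p = 1.4e-06). The groups were far apart and the wild-type libraries level. Rexo2, an exonuclease for short RNAs, and 1110008L16Rik, the protein-only RNase P subunit that cuts tRNA 5′ ends, had log2 fold changes of -0.64 and -0.48 (edgeR adjusted p = 2.8e-05 and 4.1e-05). Of 25 genes for the modification and charging of mitochondrial tRNAs, 13 fell and 1, Cars2, rose by 0.20 (median -0.18), with the tyrosyl and seryl tRNA synthetase genes Yars2 and Sars2 at -0.49 and -0.35 and the methyltransferase gene Trmt5 at -0.50. Of 14 genes for rRNA modification and ribosome assembly, 7 fell and 0 rose (median -0.19), with the GTPase gene Gtpbp10 at -0.83, the pseudouridine synthase gene Rpusd4 at -0.48 and the GTPase gene Mtg1 at -0.28.

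Of 19 genes for transcription and replication of the mitochondrial genome, 7 fell and 2 rose (median -0.13), or 36.8% lower and 10.5% higher, against 24.0% and 26.5% of all genes tested. The transcription elongation factor gene Tefm was at 13.3, 13.5 and 14.8 CPM in the knockout, against 19.5, 21.7 and 23.0 CPM in wild-type lines (log2 fold change -0.63 and edgeR adjusted p = 2.1e-05). Mgme1, an exonuclease for mitochondrial DNA, fell by 0.53 on the log2 scale. The others called lower were Tfam, Tfb2m, Tfb1m, Primpol and Ssbp1, with log2 fold changes of -0.36, -0.54, -0.33, -0.50 and -0.22. Polg, the catalytic subunit of the DNA polymerase, rose by 0.35, and Polrmt, the mitochondrial RNA polymerase, by 0.18. Of 9 tested biogenesis regulators, 3 rose and 1 fell, or 33.3% higher and 11.1% lower, against 26.5% and 24.0% of all genes tested. Myc, Esrrb and the coactivator gene Ppargc1b had log2 fold changes of 0.74, 0.45 and 0.64, and Gabpa, a transcription factor subunit, fell by 0.27. Of 70 nuclear-encoded subunits of the respiratory chain, 14 rose, 6 fell and 50 were not called, with a median log2 fold change of 0.05. Both shares, 14 and 6 of 70, were below those of all genes tested, 26.5% higher and 24.0% lower. Among them, Cox5a of complex IV was at 163 ± 12.2 CPM in knockout lines, against 116 ± 2.02 CPM in wild-type lines (a log2 fold change of 0.50 with an SE of 0.0580, edgeR adjusted p = 8.1e-07), and Ndufb11 of complex I and Uqcrc1 of complex III rose by 0.74 and 0.31. The log2 fold changes of the nuclear subunits centred near 0, while those of the 13 mitochondrial genes centred at -0.66. The difference between these sets was not tested. Fastk, Cars2, Polrmt, Gabpa, Tfam, Tfb2m, Tfb1m, Primpol and Ssbp1 were named after their values were seen.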

How the data were processed

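Poly(A) RNA of 6 mouse iPSC lines was sequenced, and sample titles gave the genotype. The authors deposited unnormalized counts for genes and repeat families. Per the submitters' processing notes, mm10, featureCounts 1.4.5 and TopHat2 2.0.11 were used; their options are not stated. The 6 columns of a second table match no label and were not used.

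Symbols, types and coordinates came from GENCODE M21, sequences from its transcripts. Repeat family rows (902 of 42290, 5.40% to 6.16% of counts) were left out of library sizes. The test was that of edgeR 4.0.16 under R 4.3.3 (filterByExpr, TMM, glmQLFit with robust = TRUE, glmQLFTest, two-sided, no covariate). SE is the log2 fold change over the square root of F. Sums and ratios were compared by exact permutation over libraries. GC trends were removed by a lowess fit per library on nuclear genes. Fits were tested on simulated counts. Every pair of libraries differed beyond counting error (chi-square per degree of freedom 2.251 or more). The members and lists were chosen with earlier results of these data known. Named genes are all 13 protein-coding and 2 rRNA members, the 5 tRNA members of highest mean CPM and the 3 of smallest p in each nuclear list. Further genes of these lists were named after their values were seen. Alternatives were other scalings, filters and tools, the replicate number as a block and each library left out. In the shallowest library 3 counts equal 0.378 CPM.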

Additional observations from a re-analysis of the deposited data

How the results depend on the processing

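The direction of the mitochondrial genes held under most settings, while the number called did not. In place of 1 gene called lower, 2 were called with DESeq2 size factors, 3 with DESeq2, with limma voom and with library GC trends removed, 4 with no filter beyond 1 count, 7 with robust = FALSE and 0 to 6 with each library left out (0 without wild-type replicate 1, 3 without wild-type replicate 3, 4 without knockout replicate 1, 6 without knockout replicate 3). Over all tested genes, the deviations of same-numbered lines from their group means correlated at 0.0885, -0.0198 and 0.11. Lines of unlike number gave -0.116 to 0.0629. The summed mitochondrial level rose with the replicate number in both genotypes. It was 962, 1252 and 1950 CPM in knockout replicates 1 to 3, against 1957, 2213 and 2541 CPM in the wild-type lines. The labels do not say whether same-numbered lines share a batch, and this was not tested. The replicate block called 3 genes lower, and 5 with library GC trends removed as well. For the difference in summed CPM of -849, exact permutation of genotype within same-numbered pairs gave p = 0.25, the smallest possible with 3 pairs. No setting called a mitochondrial gene higher. The log2 fold change of mt-Rnr1 was 0.22 with library GC trends removed, 0.06 with that and the replicate block, and -0.50 to 0.30 with a library left out (0.30 without knockout replicate 1). That of mt-Nd3 was 0.14 with library GC trends removed and -0.30 to 0.09 with a library left out (0.09 without wild-type replicate 2). The cause was not tested in any of these.

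With a library left out, the difference in summed CPM ranged from -1130 to -636 for all genes, -912 to -561 for protein-coding, -218 to -67.0 for rRNA and -1.01 to -0.633 for tRNA genes. For all 37 genes the exact permutation p over 6 libraries was 0.10. It was 0.20 with repeat families in the library totals and 0.20 with totals scaled by TMM. The log2 ratio of tRNA to protein-coding ranged from -0.15 to 0.45, and that of complex I to complex IV from -0.16 to 0.01, both turning sign without knockout replicate 1. Transcription genes called higher numbered 1 with DESeq2 and with library GC trends removed (chosen after the data were seen) and 1 to 3 with a library left out. The tRNA list had 0 higher with DESeq2 and 0 to 1 with a library left out, and the processing list 0 higher with library GC trends removed. The rRNA list had 0 to 2 higher, the respiratory chain list 9 to 18 higher (9 without wild-type replicate 1) and 3 to 9 lower (3 without knockout replicate 1, knockout replicate 2 or wild-type replicate 2) with a library left out, and 2 biogenesis genes were lower with library GC trends removed. The tRNA values rest on 12 to 52 counts per library, which limits their precision.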
